A study of Homo sapiens with 12 samples.

Results

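Kinesins are motor proteins that use ATP to move along microtubules or to take microtubule ends apart. In dividing cells a set of them builds the spindle, aligns chromosomes and splits the cell, and many of these are made mainly in G2 and mitosis. Others carry vesicles, organelles and protein complexes through the cytoplasm and along cilia, and several of those are best known from neurons. The transcripts of 42 protein-coding kinesin genes were followed here, chosen by symbol (KIF with a number and an optional letter, or KIFC1 to KIFC3) among the 63677 gene identifiers of the deposited table. They comprise 14 mitotic kinesins, 15 transport kinesins and 13 others. A further gene with a matching symbol is a pseudogene and was not counted.

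The cells were HCT116, an established human colorectal cancer line. There were 4 groups of 3 libraries each. The CR3 group carried the genotype CR3, a peptide that the series title describes as perturbing condensates. The groups labelled scramble and reverse carried constructs of those names, which the labels do not describe further, and the control group carried mCherry, a fluorescent protein. All 4 groups received doxycycline at a dose written as 1 ug/ul in the labels, with a time written as 48 and no unit, so no untreated cells are included. The design text speaks of cell clones. How many clones each group holds is not stated, so an effect of a construct and a difference between clones cannot be told apart. PolyA RNA was sequenced with a stranded kit, and the libraries held between 17418191 and 23548435 reads assigned to genes.

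Levels are given as normalized reads, a library's read count divided by its deposited size factor. Most deposited values had lost their decimal marks, and reads were restored from them as whole multiples of each library's 1-read value. Differences are on the log2(normalized reads + 1) scale, the first-named group minus the second, from a limma model of all 12 libraries, and a gene was called where the Benjamini-Hochberg adjusted p over all 15497 genes tested was under 0.05. Of the 42 kinesins, 38 had at least 10 reads in at least 3 libraries and were tested, 12 mitotic, all 15 transport and 11 others. Nothing in the labels says that the 3 libraries of a group came from separate cultures, so p-values measure the spread between these libraries only. In bulk RNA, fewer cells in a given state and less transcript per cell cannot be told apart.

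The promoters of the mitotic kinesins share short sequences that the choice of members did not use. Cell cycle promoters of the G2 and mitosis class are known for CCAAT boxes, bound by NF-Y, and for a downstream element of the letters TTTGAA or TTTAAA. All 3 motifs were searched on both strands of RefSeq promoters (GRCh38.p14, 250 bases before to 50 after each start). TTTAAA is its own reverse complement, and no motif contains another. Shown here are the 3 mitotic kinesins with the lowest CR3 values relative to mCherry, the 1 with the smallest difference (KIF11), and KIF7, which had the highest relative CR3 level of all kinesins. Each run covers 120 bases before to 30 after the start, 5′ to 3′ in the direction of transcription, and capitals mark the box CCAAT, which reads ATTGG on the other strand, the element TTTGAA, which reads TTCAAA there, and the element TTTAAA. The regions are chr11:28108127-28108276 on the minus strand for KIF18A, chr6:33391703-33391852 on the plus strand for KIFC1, chr5:138178992-138179141 on the plus strand for KIF20A, chr10:92593010-92593159 on the plus strand for KIF11 and chr15:89655438-89655587 on the minus strand for KIF7.
KIF18A: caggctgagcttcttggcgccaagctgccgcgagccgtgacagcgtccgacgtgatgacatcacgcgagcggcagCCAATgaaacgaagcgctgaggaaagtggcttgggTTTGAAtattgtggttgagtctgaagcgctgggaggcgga
KIFC1: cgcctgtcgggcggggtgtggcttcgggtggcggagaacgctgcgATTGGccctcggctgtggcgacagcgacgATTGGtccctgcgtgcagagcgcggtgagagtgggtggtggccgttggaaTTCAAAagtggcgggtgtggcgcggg
KIF20A: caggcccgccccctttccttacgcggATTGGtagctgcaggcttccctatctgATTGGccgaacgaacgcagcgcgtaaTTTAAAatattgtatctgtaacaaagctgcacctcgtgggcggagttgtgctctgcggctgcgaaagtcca
KIF11: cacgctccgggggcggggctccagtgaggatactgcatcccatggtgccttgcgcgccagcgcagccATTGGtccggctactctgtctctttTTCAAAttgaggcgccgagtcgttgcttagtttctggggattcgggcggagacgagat
KIF7: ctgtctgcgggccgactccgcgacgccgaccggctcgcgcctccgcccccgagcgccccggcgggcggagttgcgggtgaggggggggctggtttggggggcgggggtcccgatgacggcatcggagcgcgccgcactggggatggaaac

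The 4 mitotic promoters shown each hold at least 1 CCAAT and 1 downstream element, and the KIF7 window holds none of the letters searched. Over all members with a RefSeq promoter, CCAAT was found in 11 of 14 mitotic, 4 of 11 transport and 3 of 9 other kinesins by any of a gene's promoters, against 39.7% of 27305 genes and 34.6% of all 35116 promoters. TTTGAA or TTTAAA was found in 12 of 14 mitotic, 2 of 11 transport and 0 of 9 other kinesins, against 27.9% of genes and 24% of promoters. Both kinds together were found in 10 of 14 mitotic kinesins and in 1 of 11 transport kinesins (KIF5B), against 11.2% of genes and 9.27% of promoters. These are letter matches, not measured binding sites.

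All 12 mitotic kinesins tested were called lower in CR3 cells than in each of the other 3 groups. Against mCherry their median log2 difference was -0.47 (range -0.63 to -0.24), against scramble -0.62 (-0.71 to -0.40) and against reverse -0.53 (-0.67 to -0.35). The medians over all genes tested were near 0 in the same comparisons (0.00, 0.01 and 0.01). Of all genes tested, 11.1% were called lower in CR3 against all 3 groups, and single comparisons gave 14.5% against mCherry, 18.6% against scramble and 16.6% against reverse. In 10 of the 12, every CR3 library lay below every one of the 9 other libraries, which 13.4% of all genes did, and KIF11 and KIF20B were the exceptions. With only the groups compared in the fit, KIF11, KIF14 and KIF20B lost their calls against mCherry (limma adjusted p = 0.129, 0.0741 and 0.0571). Summed over the 14 mitotic kinesins, the level ran from 12484 to 13811 normalized reads in CR3 libraries, from 19533 to 20173 in scramble, from 18104 to 19923 in reverse and from 17323 to 18894 in mCherry. These counts depend on which genes were listed as mitotic, and the lists were drawn up with earlier results known. KIF2A, listed among the other kinesins, averaged 1584 normalized reads in CR3 cells and 1646 in mCherry. It was called in no comparison of CR3. CENPE, whose symbol falls outside the rule, was called lower against mCherry and scramble but not against reverse.

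**Figure D1:**
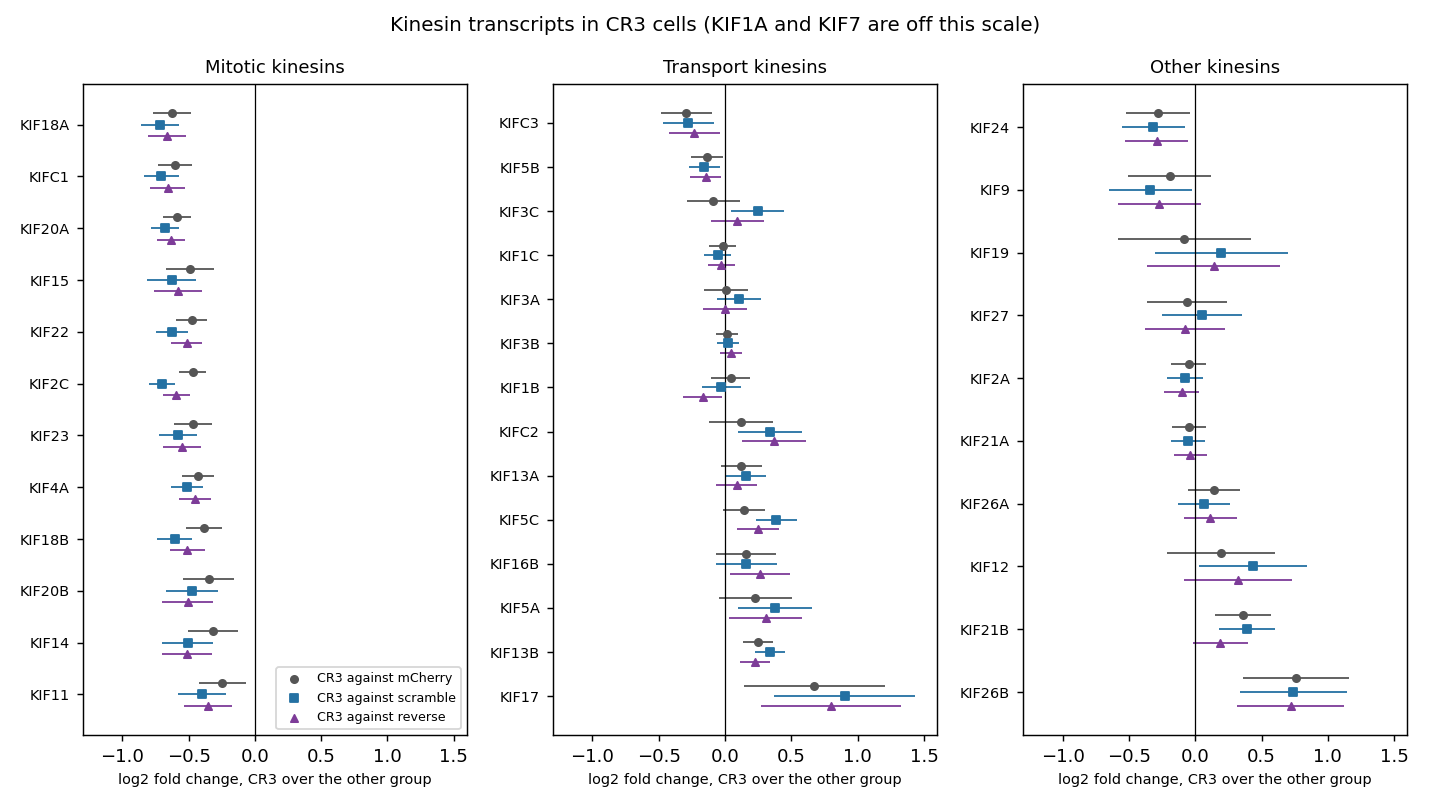
Log2 difference of each tested kinesin (points) with its 95% interval (bars), CR3 minus mCherry, scramble or reverse, grouped as mitotic, transport and other kinesins. All 12 mitotic kinesins lie below 0 in each comparison, while transport and other kinesins lie on both sides of 0. KIF1A and KIF7 are off the scale.

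Among kinesins that build the bipolar spindle, KIFC1 was the lowest in CR3 cells relative to mCherry. KIFC1, a minus-end motor that bundles spindle microtubules and gathers extra centrosomes (6:33391536-33409924 in GENCODE 29 on GRCh38, as for the other genes), had 1202, 1205 and 1187 normalized reads in CR3 libraries, 2103, 1896 and 1869 in scramble, 1782, 2088 and 1820 in reverse, and 1880, 1815 and 1773 in mCherry. The 3 CR3 libraries lay close together and far below the rest. Against mCherry the log2 difference was -0.60 ± 0.06 (SE; limma adjusted p = 8.11e-07), with -0.70 against scramble and -0.66 against reverse.

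KIF15, a plus-end motor that can maintain bipolar spindles, had 295, 354 and 354 normalized reads in CR3 libraries, 525, 524 and 499.7 in scramble, 477, 504 and 516 in reverse, and 449, 444 and 515 in mCherry. Its log2 difference was -0.49 ± 0.09 (limma adjusted p = 0.00034) against mCherry, -0.63 against scramble and -0.58 against reverse, and the CR3 libraries did not overlap the others. KIF11, the motor that slides antiparallel microtubules apart to separate the poles and the target of several antimitotic drugs, had 1246, 1550 and 1363 normalized reads in CR3 libraries, 1820, 1838 and 1800 in scramble, 1861, 1813 and 1632 in reverse, and 1501, 1539 and 1896 in mCherry. Here CR3 and mCherry overlapped, since CR3 replicate 2 lay above mCherry replicates 1 and 2. The log2 difference was -0.24 ± 0.09 (limma adjusted p = 0.0404) against mCherry, -0.40 against scramble and -0.35 against reverse. The call of KIF11 against mCherry was lost without mCherry replicate 3 (-0.14, adjusted p = 0.179), without CR3 replicate 1 (-0.17, adjusted p = 0.186) or without CR3 replicate 3 (-0.24, adjusted p = 0.121), and without any of the 3 scramble libraries or reverse replicate 2 the adjusted p was 0.0519 to 0.0542. Scaling by library size alone also ended it (-0.16, adjusted p = 0.185). So did upper quartile scaling (adjusted p = 0.0649), no filter on low reads (0.0669) and decimal places chosen without group labels (0.0548).

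The kinesins that move chromosomes or shorten microtubules at their ends gave the lowest single value. KIF18A, which dampens chromosome movements at the metaphase plate (11:28020620-28108308), had 490.5, 576 and 539 normalized reads in CR3 libraries, 872, 841 and 919 in scramble, 890.5, 849.7 and 805 in reverse, and 807, 811 and 858 in mCherry. The highest CR3 library, at 576 reads, lay well below the lowest of the others, at 805. Its log2 difference was -0.63 ± 0.07 (limma adjusted p = 1.96e-06) against mCherry, -0.71 against scramble and -0.67 against reverse.

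KIF2C, a depolymerase at centromeres that helps correct wrong attachments, had 1407, 1500 and 1531 normalized reads in CR3 libraries, 2460, 2366 and 2385 in scramble, 2240, 2320 and 2134 in reverse, and 2002, 2071 and 2070 in mCherry. Its log2 difference was -0.47 ± 0.05 (limma adjusted p = 8.71e-07) against mCherry, -0.70 against scramble and -0.59 against reverse. None of the 4 groups overlapped for this gene, and the order from low to high was CR3, mCherry, reverse and scramble.

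KIF18B, which limits astral microtubule length, had 937, 922 and 1019 normalized reads in CR3 libraries, 1535, 1461 and 1385 in scramble, 1292, 1472 and 1339 in reverse, and 1315, 1242 and 1195 in mCherry. KIF22, a chromosome arm motor, had 1619, 1650 and 1577 normalized reads in CR3 libraries, 2512, 2362 and 2606 in scramble, 2327, 2473 and 2137 in reverse, and 2213, 2357 and 2179 in mCherry. KIF4A, a chromosome-bound motor that also organises the central spindle with PRC1, had 1036, 1166 and 1044 normalized reads in CR3 libraries, 1508, 1617 and 1506 in scramble, 1477, 1519 and 1436 in reverse, and 1404, 1428 and 1535 in mCherry. In all 3 genes the CR3 libraries lay below the other 9 without overlap. The log2 differences against mCherry were -0.38 ± 0.06 for KIF18B (limma adjusted p = 0.00019), -0.48 ± 0.06 for KIF22 (adjusted p = 5.36e-06) and -0.43 ± 0.06 for KIF4A (adjusted p = 2.22e-05). KIF4A shares 13.7% of its 50-base words with its near-copy KIF4B and a pseudogene, and KIF22 has 13% and KIFC1 12.7% of exon bases opposite another gene. Whether the counting used strand is not stated in the labels.

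The kinesins of cytokinesis were lower as well. KIF20A, which brings the chromosomal passenger complex to the central spindle (5:138178719-138187715), had 1082, 1092 and 1087 normalized reads in CR3 libraries, 1763, 1735 and 1719 in scramble, 1735, 1767 and 1569 in reverse, and 1593, 1649 and 1651 in mCherry. Its CR3 SD of 5.15 reads was the smallest among the 12 mitotic kinesins tested. The log2 difference was -0.58 ± 0.05 (limma adjusted p = 1.18e-07) against mCherry, -0.68 against scramble and -0.63 against reverse. KIF23, the motor subunit of centralspindlin, had 1334, 1514 and 1409 normalized reads in CR3 libraries, 2216, 2091 and 2051 in scramble, 2110, 2138 and 1994 in reverse, and 1856, 1828 and 2209 in mCherry. Its log2 difference against mCherry was -0.47 ± 0.07 (limma adjusted p = 5.34e-05).

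KIF14, which works with citron kinase at the midbody, had 862, 1042 and 959.8 normalized reads in CR3 libraries, 1411, 1365 and 1288 in scramble, 1396, 1389 and 1293 in reverse, and 1090, 1079 and 1418 in mCherry. KIF20B, needed for late cytokinesis, had 971, 1233 and 1026 normalized reads in CR3 libraries, 1448, 1516 and 1503 in scramble, 1554, 1587 and 1428 in reverse, and 1211, 1317 and 1593 in mCherry. In both genes mCherry replicate 3 stood above its 2 partners, and in KIF20B CR3 replicate 2 overlapped the lowest mCherry library. The log2 differences against mCherry were -0.32 ± 0.09 for KIF14 (limma adjusted p = 0.0138) and -0.35 ± 0.09 for KIF20B (adjusted p = 0.00836). The call of KIF14 against mCherry was lost without mCherry replicate 3 (-0.19, adjusted p = 0.0547) or CR3 replicate 1 (-0.25, adjusted p = 0.0775). Scaling by library size alone also ended the KIF14 call (-0.23, adjusted p = 0.068). The call of KIF20B against mCherry was lost without CR3 replicate 1 (-0.28, adjusted p = 0.0515) or CR3 replicate 3 (-0.32, adjusted p = 0.0501). Without CR3 replicate 1, 9 of the 12 mitotic kinesins were still called lower against all 3 groups.

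**Figure D2:**
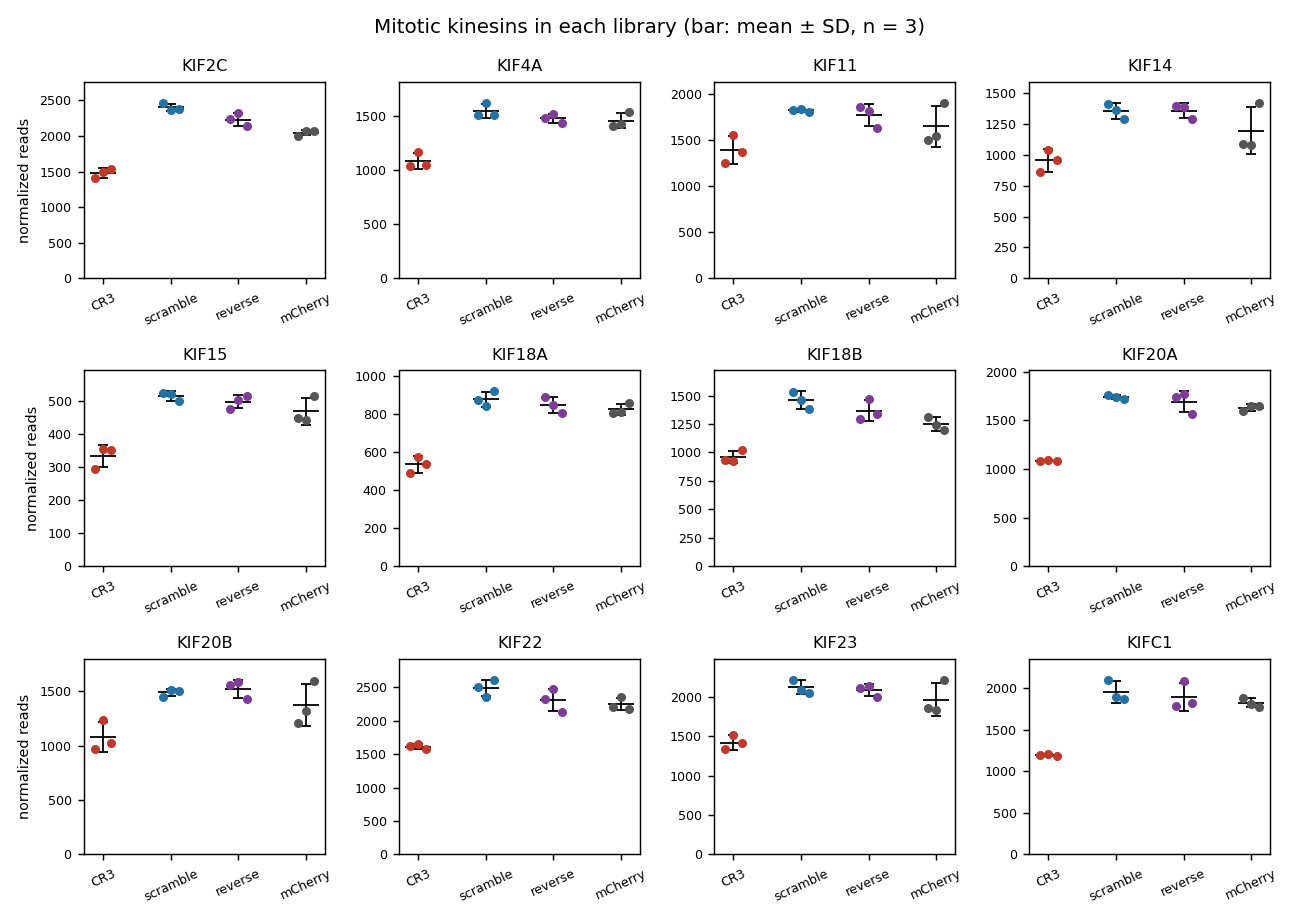
Normalized reads of the 12 tested mitotic kinesins in each library, with the groups CR3, scramble, reverse and mCherry from left to right, points for libraries and bars for mean ± SD (n = 3). CR3 libraries lie lowest in every panel, with overlap of single libraries in KIF11 and KIF20B.

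The 2 mitotic kinesins not tested were KIF2B, with 0 reads in all 12 libraries, and KIF4B, with between 0.96 and 6.14 normalized reads in every library. KIF4B shares 14% of its 50-base words with KIF4A and a pseudogene, so its few reads are uncertain. A count of 0 allows up to 3 reads of KIF2B per library, counting error only.

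The transport kinesins did not move as a block. The median log2 difference of the 15 was 0.12 relative to mCherry, 0.16 relative to scramble and 0.09 relative to reverse. Against mCherry 2 of 15 were called higher and 1 lower, against scramble 7 higher and 2 lower, and against reverse 5 higher and 0 lower. Over all genes, 14% were called higher in CR3 relative to mCherry, 19.1% relative to scramble and 16.9% relative to reverse, so the count against mCherry is near the background. Called higher against all 3 groups were KIF1A and KIF13B, 2 of 15, where 10.9% of all genes were, and no transport kinesin was called lower against all 3. Summed over the 15 genes, the level ran from 28551 to 29353 normalized reads in CR3 libraries, 28658 to 28958 in scramble, 29009 to 29377 in reverse and 28475 to 29848 in mCherry, and these ranges overlap. In KIF1A, KIF13B, KIF17 and KIF5C every CR3 library lay above the other 9, as in 13.8% of all genes, and the other 11 overlapped.

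KIF1A, the motor of synaptic vesicle precursors and dense core vesicles in neurons (2:240713761-240821036), had 494, 597 and 668 normalized reads in CR3 libraries. It had 11.5, 17.8 and 16.7 normalized reads in scramble, 13.5, 21.5 and 15.3 in reverse, and 12.5, 15.98 and 28.8 in mCherry. The lowest CR3 library was more than 10 times the highest of the other 9. From 1838 reads in CR3 libraries against 50 in scramble, 51 in reverse and 58 in mCherry, the ratio was 31.0 (95% exact counting interval 23.9 to 41.0) against mCherry, 37.9 (28.7 to 51.3) against scramble and 34.9 (26.4 to 47.0) against reverse. The log2 difference was 4.94 ± 0.27 (limma adjusted p = 1.34e-09) against mCherry, 5.18 against scramble and 5.06 against reverse.

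The size of the KIF1A difference rests on where the decimal marks were placed. Restored without the group labels, its counts in the 9 other libraries are read 10 times higher and the log2 difference becomes 1.69 (limma adjusted p = 0.000239) against mCherry, 1.94 against scramble and 1.82 against reverse. Under that reading each of those 9 counts would have to be a multiple of 10. Among kinesin counts of at least 100 reads, 41 of 389 (10.5%) are multiples of 10.

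KIF13B, a motor of membrane cargo and cell polarity proteins, was the other transport kinesin higher in all 3 comparisons. It had 1284, 1263 and 1252 normalized reads in CR3 libraries, 982, 1027 and 994 in scramble, 1032, 1098 and 1121 in reverse, and 1126, 1059 and 1017 in mCherry. Every CR3 library lay above the other 9, by a modest step. Against mCherry the log2 difference was 0.25 ± 0.05 (limma adjusted p = 0.00218), with 0.34 against scramble and 0.23 against reverse, and 7.78% of its exon bases lie opposite other genes.

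None of the 4 transport kinesins with the most reads was called against mCherry. KIF5B, the widely expressed conventional kinesin heavy chain, averaged 8815 ± 395 normalized reads in CR3 cells and 9716 ± 830 in mCherry (SD, n = 3 each), a log2 difference of -0.14 (95% interval -0.26 to -0.02, limma adjusted p = 0.0785). KIF1C, a Golgi and podosome motor, differed from mCherry by -0.02 (-0.12 to 0.08). KIF1B, a motor of mitochondria and synaptic vesicle precursors, differed by 0.04 (-0.10 to 0.19) from mCherry, by -0.03 from scramble and by -0.17 (limma adjusted p = 0.0733) from reverse. KIF3B differed from mCherry by 0.01 (-0.07 to 0.10), as did KIF3A, its partner in the heterotrimeric motor of intraflagellar transport, by 0.01 (-0.16 to 0.17). The intervals of these 5 genes against mCherry exclude a difference as large as the mitotic median of -0.47.

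KIF5B was called lower against scramble (-0.16, limma adjusted p = 0.038). KIFC3, a minus-end motor at cell junctions, was called lower against mCherry (-0.29, adjusted p = 0.0234) and scramble (-0.28, adjusted p = 0.024), with -0.23 (adjusted p = 0.0601) against reverse. Called higher against both scramble and reverse were KIF17 (0.90 and 0.80), KIF5C (0.39 and 0.25) and KIFC2 (0.34 and 0.37), and against scramble alone KIF3C (0.25) and KIF5A (0.38). KIF17, a ciliary and dendritic motor, stood at 43.6 to 60.5 normalized reads in CR3 libraries, 23.0 to 28.98 in scramble, 22.5 to 33.3 in reverse and 21.3 to 41.8 in mCherry, so CR3 did not overlap the other groups, and its difference against mCherry was 0.67 (adjusted p = 0.0544). Of the 11 calls of transport kinesins other than KIF1A and KIF13B, 9 were lost when some single library was left out. KIF5C and KIF17 against scramble were the 2 that held without every library in turn. KIF1B, KIF13A and KIF16B were called in no comparison.

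**Figure D3:**
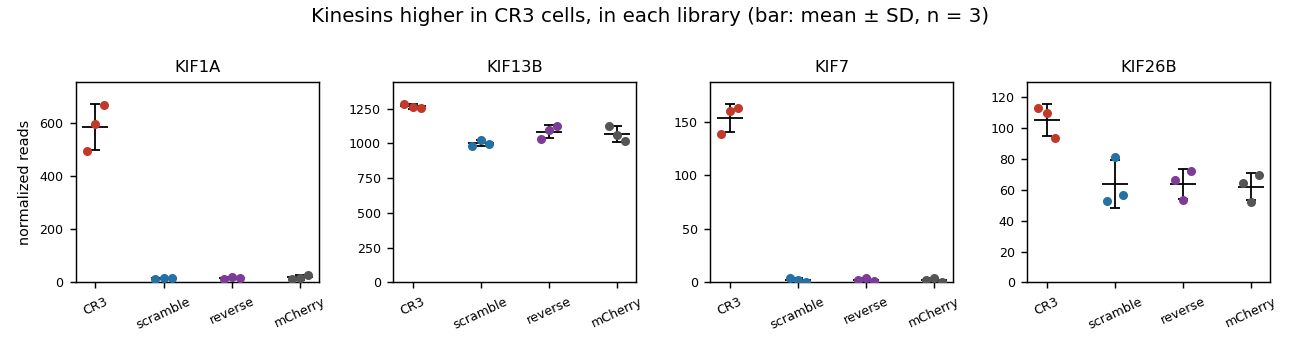
Normalized reads of KIF1A, KIF13B, KIF7 and KIF26B in each library, with the groups CR3, scramble, reverse and mCherry from left to right, points for libraries and bars for mean ± SD (n = 3). CR3 libraries lie above the other 9 in all 4 panels, with KIF1A and KIF7 near 0 outside CR3.

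Among the other kinesins, KIF26B was called higher in CR3 against all 3 groups, where 10.9% of all genes were, and none was called lower against all 3. KIF7 also passed the threshold, but it entered the test only through its CR3 reads, so it is described by its values and no test is read from it. The class as a whole showed no shift, with a median of -0.05 relative to mCherry, 0.07 to scramble and 0.12 to reverse, and summed levels of 5096 to 5250 normalized reads in CR3 libraries, 4946 to 5101 in scramble, 4991 to 5150 in reverse and 4800 to 5346 in mCherry. KIF7, which acts at the tip of the primary cilium in Hedgehog signalling (15:89608789-89655451), had 138, 159.6 and 163 normalized reads in CR3 libraries, 3.84, 1.87 and 0 in scramble, 2.08, 4.09 and 1.80 in reverse, and 2.09, 4.21 and 0 in mCherry. No library outside CR3 exceeded 5 reads. From 483 reads in CR3 libraries against 6 in scramble, 8 in reverse and 7 in mCherry, the ratio was 67.5 (95% exact counting interval 32.5 to 169) against mCherry, 83.1 (37.9 to 228) against scramble and 58.4 (29.4 to 136) against reverse. The intervals cover counting error only, leave out the spread between libraries, and are not read as a test. Restored without group labels, 7 of its counts are read differently, and the fitted log2 difference is 3.97 in place of 5.93 against mCherry and 2.57 in place of 5.45 against reverse. TICRR lies opposite 11.8% of the KIF7 exon bases.

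KIF26B, an atypical kinesin needed for kidney development in mice, had 113, 109.6 and 93.5 normalized reads in CR3 libraries, 52.8, 81.3 and 57.0 in scramble, 66.7, 53.2 and 72.0 in reverse, and 64.8, 52.2 and 69.4 in mCherry. All CR3 libraries lay above the other 9. Its log2 difference was 0.76 ± 0.19 (limma adjusted p = 0.00615) against mCherry, 0.74 against scramble and 0.72 against reverse.

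KIF21B, a neuronal motor and microtubule pausing factor, was called higher against mCherry (0.36, limma adjusted p = 0.0108) and scramble (0.39, adjusted p = 0.00503), with 0.19 (adjusted p = 0.154) against reverse. Its call against mCherry was lost without CR3 replicate 3 (0.28, adjusted p = 0.0776). KIF24, a centriole protein that restrains cilium formation, was called lower against scramble (-0.32, adjusted p = 0.0367), and that call was lost without CR3 replicate 1 or any 1 scramble library (adjusted p 0.0672 to 0.184). The CR3 libraries of KIF24, at 182 to 237 normalized reads, lay below the other 9, at 241 to 299, as in 13.4% of all genes. KIF2A, KIF9, KIF12, KIF19, KIF21A, KIF26A and KIF27 were called in no comparison of CR3.

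KIF25 and KIF6 were too low to test. KIF25 had 4.67, 2.63 and 4.25 normalized reads in CR3 libraries. Its CR3 libraries held 12 reads together, against 2 in scramble, 0 in reverse and 1 in mCherry. Its ratio was 6.19 (95% exact counting interval 1.38 to 57.0) over scramble and 11.7 (1.74 to 502) over mCherry, and against reverse it was at least 1.29-fold higher, taking 3 reads per library as the floor. KIF6 had 32 reads in CR3 libraries, 12 in scramble, 16 in reverse and 13 in mCherry, a ratio of 2.41 (1.23 to 5) over mCherry. The intervals of both genes cover counting error only and are not read as tests.

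Per kilobase of exon, levels in the 9 libraries other than CR3 ran over a wide range. KIF5B led with 1661 normalized reads per kilobase, followed by the Golgi motor KIF1C with 704, and then by the mitotic kinesins KIF2C (611), KIFC1 (566) and KIF22 (545). At the low end stood KIF2B with 0, KIF25 with 0.0941, KIF6 with 0.370, KIF7 with 0.444, KIF4B with 0.595 and KIF1A with 1.02 normalized reads per kilobase. In CR3 cells KIF1A had 35.1 and KIF7 30.7. Those CR3 levels of KIF1A and KIF7 are close to that of KIF5A in the 9 other libraries (35.1). The level of KIF2C in CR3 cells, 406 per kilobase, was below that of KIF20A in the 9 others (426).

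**Figure D4:**
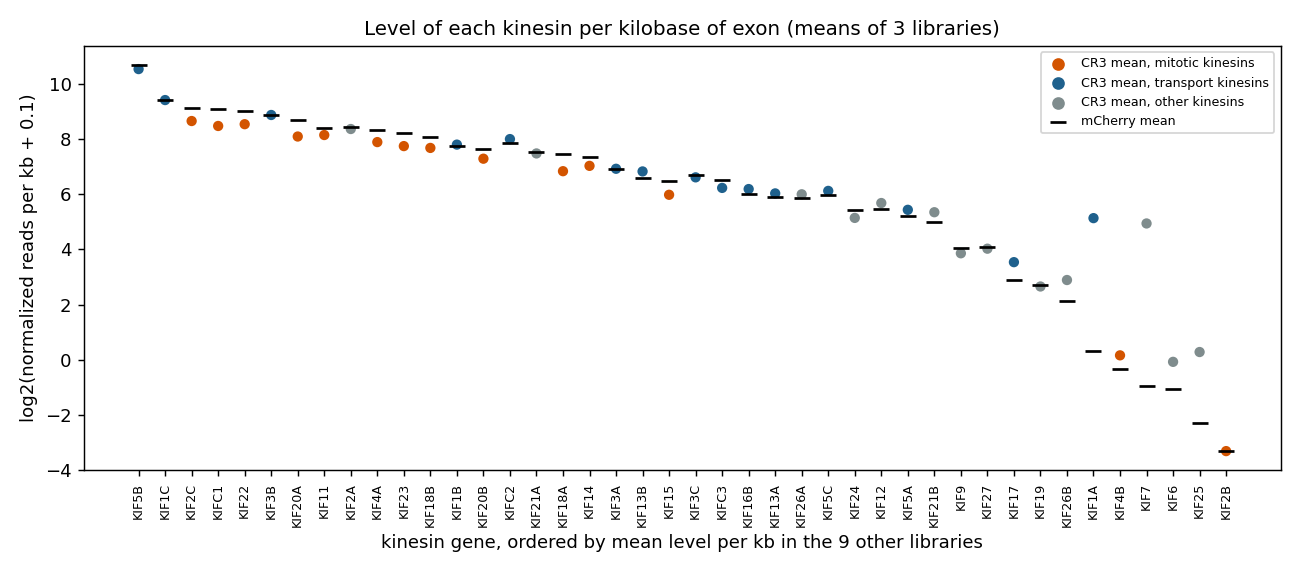
Level per kilobase of exon, as log2(normalized reads per kilobase + 0.1), for all 42 kinesins, ordered by their mean in the 9 libraries other than CR3. Coloured points are CR3 means by class and black dashes mCherry means (n = 3 each). Most points lie close to their dash, the mitotic ones a little below, and KIF1A and KIF7 far above. KIF25 also lies well above its dash, from 12 reads in CR3 and 1 in mCherry.

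The scramble and reverse groups differed little from mCherry. KIF2C was the only kinesin called in scramble against mCherry (0.23 ± 0.05, limma adjusted p = 0.0186), where 1.62% of all genes were called. With any single scramble library or mCherry replicate 1 or 2 left out, it was not called (adjusted p 0.0578 to 0.106), and without mCherry replicate 3 there were 4 calls. Limma called 0 kinesins in reverse against mCherry, where 0.684% of genes were called, and 0 in reverse against scramble, with 0.497% of genes called. At an unadjusted p under 0.05 there were 4 and 1 kinesins in those comparisons, and voom weights also gave 0 in both. All 12 mitotic kinesins nevertheless had positive values in scramble against mCherry (median 0.13) and in reverse against mCherry (median 0.09). These comparisons share the mCherry libraries with each other and with CR3 against mCherry.

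Kinesins with other symbols, the partners of mitotic kinesins and the adaptors of transport kinesins were set beside the members. CENPE, the kinesin that congresses chromosomes from the poles, averaged 991 ± 124 normalized reads in CR3 cells and 1217 ± 227 in mCherry (SD, n = 3 each). It was called lower against mCherry (-0.29, limma adjusted p = 0.0484) and scramble (-0.28, adjusted p = 0.0434), with -0.23 (adjusted p = 0.0975) against reverse. STARD9, a kinesin of centrosome integrity, was called in none, with 0.15 (adjusted p = 0.487) against mCherry.

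Of the 20 partners of mitotic kinesins, 18 were called lower in CR3 against all 3 groups, where 11.1% of all genes were, and the list's medians were -0.46 against mCherry, -0.63 against scramble and -0.56 against reverse. They include RACGAP1, the other subunit of centralspindlin (-0.46, limma adjusted p = 1.06e-06 against mCherry), the passenger subunit BIRC5 (-0.46, adjusted p = 2.88e-07), the kinase PLK1 (-0.51, adjusted p = 7.19e-07) and citron kinase, CIT (-0.53, adjusted p = 1.31e-06). The exceptions were CKAP5, a microtubule polymerase, with -0.06 (limma adjusted p = 0.447) against mCherry and a call against scramble (-0.15, adjusted p = 0.0346), and the spindle pole protein NUMA1, with -0.07 (adjusted p = 0.402) against mCherry and no call. Many genes of this list are themselves made mainly in G2 and mitosis.

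Of the 19 light chains and cargo adaptors of transport kinesins, 3 were called higher against all 3 groups, where 10.9% of all genes were, and none lower against any, with a median of 0.09 relative to mCherry, 0.12 to scramble and 0.12 to reverse. They were FYCO1, an adaptor of late endosomes (0.25, limma adjusted p = 0.000489 against mCherry), TRAK1, a mitochondrial adaptor (0.17, adjusted p = 0.0188), and MAPK8IP2, a JNK scaffold that binds kinesin light chains (0.41, adjusted p = 0.0311). MADD, an adaptor that links KIF1A and KIF1B to synaptic vesicle cargo, was called against mCherry (0.16, adjusted p = 0.0353), with 0.13 against scramble and 0.05 against reverse.

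**Figure D5:**
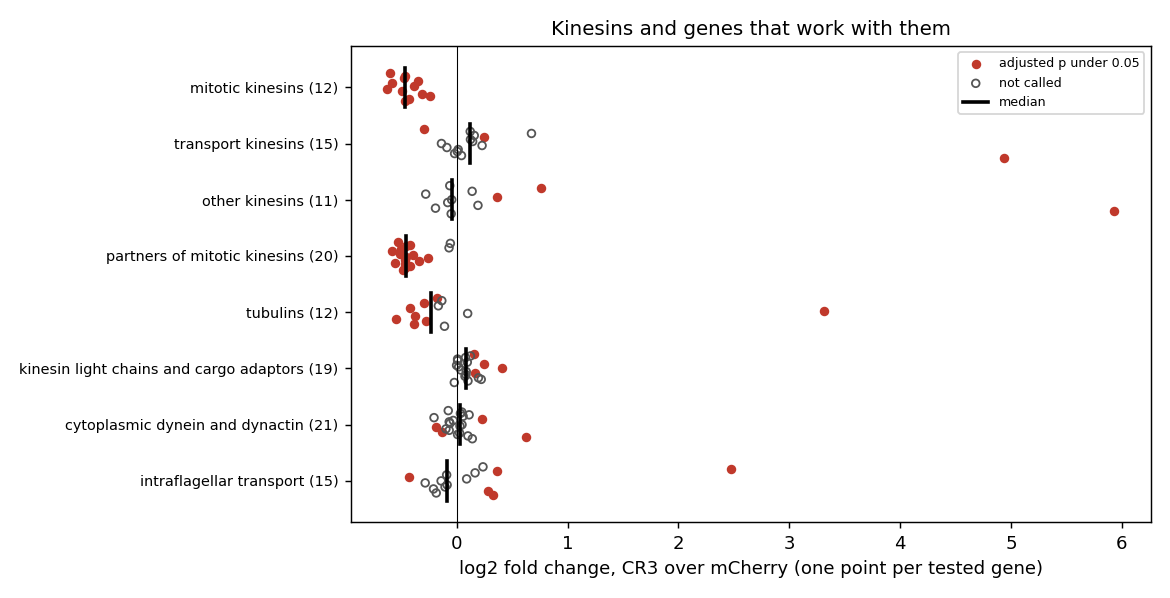
Log2 differences of the genes of each list (points) with the list's median (bar), CR3 minus mCherry. Mitotic kinesins and their partners lie below 0, while transport kinesins and adaptors lie on both sides of it. KIF1A stands far above 0, and KIF17 and the adaptor MAPK8IP2 also lie above it.

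Markers of other cell types were read in the same libraries. Of 10 colon epithelial markers, 6 were tested, and EPCAM, KRT8, KRT18 and KRT19 were called lower in CR3 against all 3 groups (-0.41 to -0.24 against mCherry), while CDH1 and CDX2 were not called. Their summed level ran from 45679 to 52940 normalized reads in CR3 libraries, 57789 to 60935 in scramble, 55168 to 59234 in reverse and 55898 to 62808 in mCherry, with CDX1 at 0 in CR3 and scramble and CDH17 at 0 in scramble, reverse and mCherry. Of 10 genes that mark neuron-like lines of embryonic kidney origin, 7 passed the filter on low reads, and PAX2 was not called. IRS4, NEFM, INA, CDH2 and UCHL1 passed only through CR3, so no test is read from them. Over the 3 libraries of a group, UCHL1 had 1559 reads in CR3, 2 in scramble, 9 in reverse and 8 in mCherry, and LIN28B had 585 in CR3, 23 in scramble, 32 in reverse and 13 in mCherry. The summed level of the list ran from 1691 to 1941 normalized reads in CR3 libraries, 211 to 235 in scramble, 254 to 266 in reverse and 239 to 281 in mCherry. STMN2 and GAP43 were at 0 in all 3 other groups, EYA1 at 0 in scramble and mCherry, and NEFM at 0 in reverse. IRS4 averaged 549.8 ± 54.2 normalized reads in CR3 cells and 4.70 ± 1.82 in mCherry (SD, n = 3 each), beside the 586 ± 87.2 and 19.1 ± 8.57 of KIF1A. Restored without group labels, the fitted log2 difference against mCherry is 4.94 for NEFM, 3.23 for UCHL1, 3.04 for INA, 1.71 for CDH2, 1.39 for IRS4 and 1.16 for LIN28B. The part of these markers in the KIF1A and KIF7 results was not tested, nor was that of either list in the mitotic results.

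Markers of blood cells, fibroblasts and neurons were read as well. The blood marker PTPRC was at 0 in all groups. Of 8 fibroblast markers, COL1A1 was tested and called higher against scramble (0.42) and reverse (0.35) but not mCherry (0.28), and the sums ran from 887 to 1086 in CR3, 709 to 759.6 in scramble, 675 to 846 in reverse and 672 to 923 in mCherry. Of 8 neuron markers, SYT1 and MAP2 were tested, and SYT1 was called lower in CR3 against all 3 groups (-0.55 against mCherry). Among those too low to test, RBFOX3 had 34 reads in CR3 libraries, 2 in scramble, 7 in reverse and 2 in mCherry, STMN2 had 25 in CR3 and 0 in the other groups, and SNAP25 had 6 in CR3, 22 in scramble, 21 in reverse and 18 in mCherry. The neuron sums ran from 1986 to 2147 in CR3, 2441 to 2595 in scramble, 2546 to 2760 in reverse and 2729 to 2980 in mCherry, with ELAVL4 at 0 in all groups.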

How the data were processed

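RNA of 12 libraries, 3 in each of 4 groups, was measured by polyA RNA-seq. Per the submitters' processing notes, tools included Trim Galore, STAR, featureCounts, Salmon, edgeR and DESeq2 with the build GRCh38, with no roles, versions or strand setting stated. The deposited values, in a unit of their own kind, are reads divided by a size factor with most decimal marks lost, as found from the values; the analysis planned for counts was therefore run on restored values.

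Reads were restored as whole multiples of each library's 1-read value (100% of 265152 non-zero cells whole within 1e-07). The place of the mark was chosen per gene from a count likelihood that used the group labels, and 682 genes with an ambiguous cell were left out, none a kinesin. On simulated data over 63677 genes 99.866% of cells were recovered, and 98.26% of real cells that had kept their mark were read right with it hidden. Those marked cells all held 1 read, and the simulation changed 200 genes by 0.5-fold to 2-fold. Neither check therefore covers the place of the mark in differences as large as those of KIF1A and KIF7. Libraries held 17418191 to 23548435 reads. Genes with at least 10 reads in at least 3 libraries were tested with limma 3.58.1 (R 4.3.3; trend, log2(normalized reads + 1), two-sided, Benjamini-Hochberg). On simulated CR3 against mCherry data the test called 94% of genes at 0.5-fold, 54% at 0.75-fold, 72% at 1.33-fold and 100% at 2-fold, 50 genes each among those tested. In the real comparison 4415 of 15497 genes were called, so the adjusted threshold differs. These rates therefore do not give the power of the real test. Intervals of ratios and floors cover counting error only.

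Gene coordinates and exon lengths are those of GENCODE 29 on GRCh38, and promoters are RefSeq's. Members and lists were chosen with earlier results of these data known. Full values are given for mitotic kinesins and for others called in CR3 against all 3 groups or absent from a group, and up to 4 genes by p from each further list; other genes named were chosen after their values were seen. Other scalings, filters, pseudocounts, fits, decimal places and left-out libraries were tried. A result for 1 blood marker list is not reported here.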

Additional observations from a re-analysis of the deposited data

How the results depend on the processing

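Of the counts of called kinesins, 330 recomputed values stayed within 1.5 times the reported one and 15 did not. For the 16 kinesins called against all 3 groups, 1080 recomputed differences kept their direction and their side of the threshold, 21 lost their call and none changed sign. KIF7, which entered the test only through its CR3 reads, is among these 16 and in counts of higher kinesins below. No support is drawn from its calls. Over all kinesins tested and all comparisons, a call was lost 76 times and gained 46 times. Scaling by library size alone moved the median of all genes to 0.09, 0.10 and 0.09 against mCherry, scramble and reverse. It gave 8 of the 38 kinesins tested higher against mCherry and 11 against reverse, where 3571 and 4071 of all 15497 genes were called higher. It also gave 4 transport kinesins higher against all 3 groups, with 10 mitotic kinesins lower against all 3. The share of all genes called against all 3 groups was not recomputed for this scaling. Decimal places chosen without group labels left 1 other kinesin higher against all 3 groups (KIF26B). A filter of at least 10 reads in all 9 libraries other than CR3, chosen after seeing the data, left 1 other kinesin higher and gave 1 transport kinesin lower (KIFC3) against all 3. The cause was not tested, beyond the removal of KIF7 by that filter.

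Leaving out 1 library at a time gave 10 to 14 kinesins lower and 4 to 6 higher against mCherry, 12 to 15 and 7 to 11 against scramble, 12 to 15 and 5 to 7 against reverse, 0 to 4 in scramble against mCherry and 0 to 1 in reverse against mCherry. Of 15497 genes, 1661 to 2216 were lower in CR3 against mCherry, 2363 to 3165 against scramble and 2038 to 2925 against reverse. Those higher numbered 1647 to 2158, 2373 to 3253 and 2058 to 2922. In scramble against mCherry 76 to 277 genes were lower and 32 to 326 higher, and in reverse against mCherry 53 to 95 and 33 to 104. Lower against all 3 groups were 9 to 12 mitotic and 0 to 1 transport kinesins, and higher were 2 to 3 transport and 2 to 3 other kinesins, KIF7 included. With all libraries 11.1% of all genes were lower and 10.9% higher against all 3, and these shares were not recomputed here. A lower transport kinesin appeared without scramble replicate 1 or reverse replicate 1.

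Same-numbered libraries did not consistently deviate together (correlations of -0.445 to 0.305), so the replicate numbers were not taken as pairs. Some libraries of different numbers had larger correlations, as mCherry replicate 3 with CR3 replicate 2 (0.6) and with CR3 replicate 1 (-0.598). The source of that spread was not tested, and the main model does not include it. With the replicate number as a block, 12 kinesins were lower and 5 higher against mCherry, 14 and 9 against scramble, and 12 and 8 against reverse, with 11 mitotic kinesins lower against all 3 (KIF11 at limma adjusted p = 0.0539 against mCherry). Of 15497 genes in that fit, 2029 were lower and 2010 higher against mCherry, 2710 and 2790 against scramble, and 2378 and 2435 against reverse. Depth limits KIF2B, KIF4B, KIF6 and KIF25, which were not tested.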

Other observations

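Tubulins, the subunits of the tracks on which kinesins move, were mostly lower in CR3 cells. Of 12 tested, 7 were called lower and 1 higher against mCherry, 8 and 1 against scramble, and 7 and 1 against reverse. Of all genes, 14.5%, 18.6% and 16.6% were called lower in those comparisons. TUBA1B, a main alpha-tubulin, averaged 16469 ± 590.3 normalized reads in CR3 cells and 21503 ± 887 in mCherry (SD, n = 3 each), a log2 difference of -0.38 (limma adjusted p = 1.63e-05). TUBB gave -0.37 (adjusted p = 5.23e-06) and TUBA4A -0.55 (adjusted p = 8e-06). TUBB2B, a beta-tubulin of developing neurons, averaged 245 ± 26.5 normalized reads in CR3 cells and 24.2 ± 6.27 in mCherry, a difference of 3.32 (limma adjusted p = 9.59e-09). With decimal places chosen without group labels, 9 of its values are read differently, as for KIF1A, and the difference is 0.05 (limma adjusted p = 0.887). Which reading holds was not tested for this gene.

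Dynein and dynactin, the minus-end-directed motor and its activator, gave counts near the background. Of 21 genes tested, 2 were called lower and 2 higher against mCherry, where 14.5% of all genes were called lower and 14% higher. DCTN5 gave 0.23 (limma adjusted p = 0.00127), DYNC1I1 0.62 (adjusted p = 0.0154), DYNLT1 -0.19 (adjusted p = 0.00541) and DYNLL1 -0.13 (adjusted p = 0.0309).

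Of 15 intraflagellar transport genes tested, 4 were called higher and 1 lower against mCherry, where 14% of all genes were called higher and 14.5% lower. DYNC2H1, the heavy chain of the retrograde ciliary motor, averaged 277 ± 14.1 normalized reads in CR3 cells and 49.97 ± 13.2 in mCherry (SD, n = 3 each), a difference of 2.48 (limma adjusted p = 1.87e-08). With decimal places chosen without group labels, 1 of its values is read differently and the difference is 1.38 (adjusted p = 0.101). IFT88, a subunit of the anterograde complex, gave -0.43 (adjusted p = 0.000609), IFT20 0.32 (adjusted p = 0.015) and IFT27 0.28 (adjusted p = 0.0369).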
